A study of Mus musculus with 9 samples.

Results

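The hearts of mice labelled with the strain Myh6-CnA, called CnA here, were set against wild-type hearts by microarray, with probes against protein-coding messenger RNAs (mRNAs) and against long non-coding transcripts (lncRNAs). The members were the 3 arrays titled CnA and the 3 arrays titled WT, 6 of the 9 arrays of the study. The WT arrays carry the strain label B6SV129F1 wild-type. Another group of 3 arrays, TAC, has the same wild-type strain label with TAC surgery and is used below only to show where the CnA signal differs from it. The labels give no age, no sex, no sham operation and no background strain for the Myh6-CnA mice. All samples are total RNA of cardiac tissue, and the labels do not say whether the arrays of a group come from separate animals, so that every p-value below measures only the spread between these arrays.

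Calcineurin is a calcium- and calmodulin-dependent phosphatase of which CnA is the catalytic subunit. It removes phosphate from transcription factors of the NFAT family, which then enter the nucleus. The Myh6 promoter is active in heart muscle cells, and mice that carry an active calcineurin transgene under it are a widely used model of cardiac hypertrophy and failure. In such a model the transgene acts in muscle cells, whereas RNA of whole cardiac tissue holds all cell types of the heart, so that fewer cells of a type and less RNA per cell cannot be told apart.

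Signals are given as log2 of the background-subtracted intensity minus the 75th percentile of that array, called the scaled log2 signal. Before scaling, the WT arrays were the brightest, with that percentile at 441.9 ± 13.6 intensity units (SD, n = 3), followed by CnA at 289.7 ± 9.23 and TAC at 269.1 ± 9.09. The CnA arrays detected 72.39% to 77.28% of the probes above background, and the WT arrays 72.21% to 76.69%. Correlations over probes were 0.982 to 0.994 within CnA, 0.972 to 0.984 within WT and 0.899 to 0.937 between them. CnA replicate 3 had another scan date than the other 8 arrays and the same row and column as WT replicate 1, from which a second slide is inferred. It correlated at 0.982 to 0.985 with the other CnA arrays. All WT arrays lay in row 1 of the first slide and CnA replicates 1 and 2 in its row 2. Group and place on the slides therefore cannot be told apart.

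Many of the measured transcripts differed between CnA and WT hearts. Of 44224 probes tested, 25111 passed limma's test at an adjusted p under 0.05, a share of 56.8%. The count was 21018 with the row on the slide as a block, 21935 in a fit of CnA and WT alone, 21918 without WT replicate 2, and 25292 of 59579 with no filter on dim probes, so that a majority was not reached in every setting. The CnA signal was higher for 16031 of them, 36.2% of the probes tested, and lower for 9080, or 20.5%. At least a 2-fold difference beside the adjusted p left 6162 probes higher and 5053 lower, together 25.4%. That balance turned with the scaling, to 4758 higher and 5740 lower under quantile normalization and 4943 and 5777 under median scaling, and in the deposited tables to 4319 and 4830. For mRNA probes it was 2468 higher and 2702 lower with the 75th percentile too. The 3 CnA values lay wholly above or below the 3 WT values for 27603 probes, 62.4%. With only the probes well above background on all 6 arrays, which no probe enters through 1 group alone, 22651 of 38791 were called.

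The excess of higher over lower calls moved with the scaling. The median difference of all tested probes was 0.22 (log2, CnA minus WT) and fell to 0.11 under quantile normalization, where 13295 calls were higher and 10295 lower. No called probe had a difference between 0 and the median shift, so that sorting the same calls around it leaves 16031 and 9080. The calls were made against 0 and not against that shift, so this sorting says nothing about its part. Under median scaling, which moves the centre, 12800 calls were higher and 10334 lower.

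The rise was more one-sided for lncRNAs than for mRNAs in every scaling tried. Among 23057 lncRNA probes tested, 8975 were higher and 3407 lower in CnA, so that 72.5% of the calls were higher. Among 19086 mRNA probes, 6432 were higher and 4770 lower, or 57.4%. Quantile normalization gave 64.5% for lncRNA and 50.9% for mRNA probes, and scaling to the median gave 63.7% and 49.0%. Median differences were 0.29 for lncRNA and 0.14 for mRNA probes, or 0.18 and 0.04 under quantile normalization. The share called at all was 53.7% for lncRNA and 58.7% for mRNA probes, near the 56.8% over all probes. Another 2081 tested probes stood in neither deposited table, and 1527 of them were called. Both tables hold only probes detected on at least 6 arrays, so that unlisted probes, apart from reference genes, passed the filter through 1 group, and those that did so through CnA or WT had to differ; nothing is read from their count.

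The brightest probes were called most often. Probes were divided into 5 strata of equal size by their mean over the 6 arrays. From the dimmest to the brightest stratum the share called was 44.8%, 47.4%, 55.2%, 62.1% and 74.4%. With strata made from the 3 TAC arrays, which are no part of the contrast, it was 51.4%, 47.1%, 53.2%, 59.3% and 72.9%. The dimmest TAC stratum holds 2034 unlisted probes with 1502 called, from which nothing is read. Its share was 40.4% for lncRNA and 49.5% for mRNA probes, against 45.4% and 49.4% in the second TAC stratum. The dimmest stratum by the 6 arrays also holds 1893 unlisted probes, 1353 of them called. There 38.3% of lncRNA and 36.1% of mRNA probes were called. The median SD among CnA arrays fell along the same strata from 0.276 to 0.0885, and among WT arrays from 0.317 to 0.206.

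In the dimmest stratum, 1466 lncRNA probes were higher in CnA and 208 lower, and in the brightest 1971 were higher and 1165 lower. The balance of mRNA probes varied with the stratum. In the fourth stratum 1243 mRNA probes were higher and 1436 lower, whereas in the dimmest 754 were higher and 178 lower, and in the brightest 2197 and 1243. Of the calls in the brightest stratum, 62.9% were higher for lncRNA and 63.9% for mRNA probes, or 51.2% and 57.2% under quantile normalization. In the brightest stratum by TAC they were 70.3% and 73.2%. The 20 negative control probes, which match no transcript, were on the same scale 0.29 higher in CnA at the median (range -0.51 to 0.67), and 15 of them were higher. Their part in the excess among dim probes was not tested. The brightest control stood at -1.10 in WT and -1.29 in CnA, near the median level of the tested probes, -1.15. Only 23496 of the tested probes were brighter than every control on all CnA or all WT arrays, and 16958 of these were called.

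The balance of mRNA probes by stratum rests on how brightness was measured. With strata made from the TAC arrays, the dimmest held 598 higher and 992 lower mRNA probes and the fourth 1337 higher and 1041 lower, both the opposite of the balance above, and each stratum but the dimmest had more higher than lower calls. For lncRNA probes the dimmest stratum by TAC held 961 higher and 492 lower, and each brighter stratum also had more higher than lower calls.

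**Figure D1:**
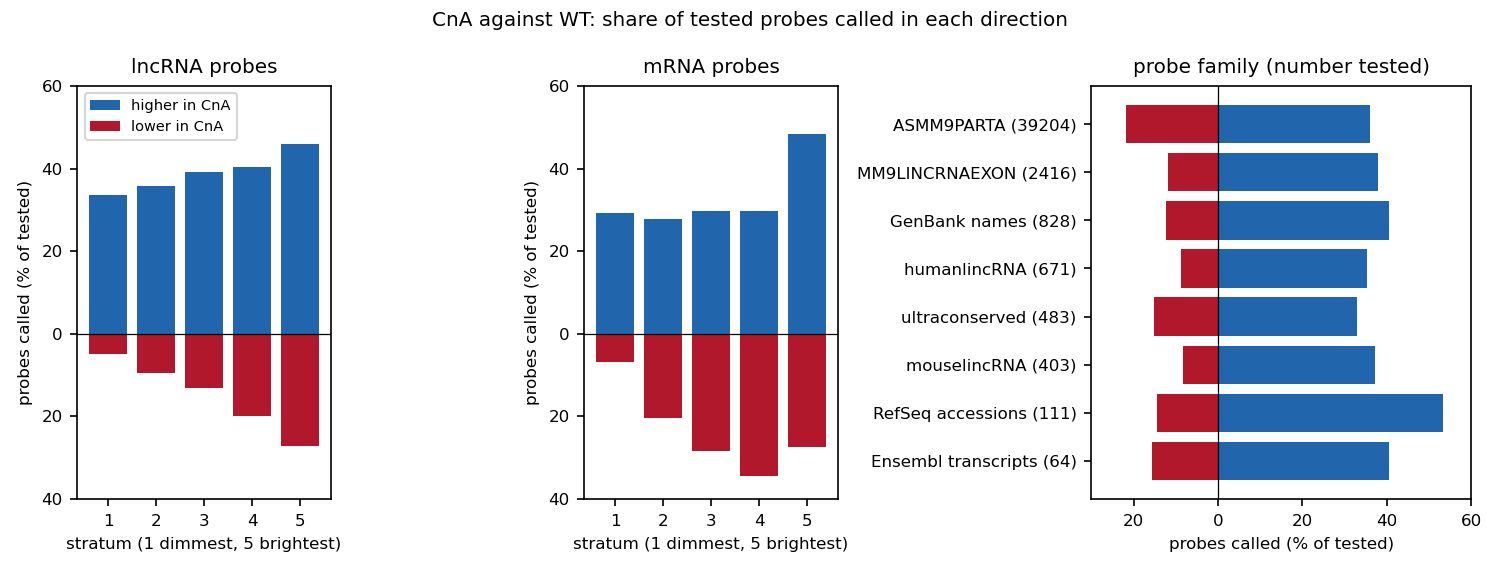
Share of tested probes (vertical axis, percent) called higher (blue) or lower (red) in CnA than in WT by limma at an adjusted p under 0.05, for lncRNA and mRNA probes in 5 strata of brightness, and for probe families (horizontal bars, number tested in brackets). The lower share of lncRNA probes grows from 4.76% in the dimmest to 27.2% in the brightest stratum, and that of mRNA probes is largest in the fourth at 34.4%, a balance that turns with strata made from the TAC arrays.

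The leading probes of each class were taken among called probes detected on all 6 arrays whose WT and CnA values do not overlap, so that their lack of overlap is part of the choice. Among these the largest difference lay on an mRNA probe that was bright in CnA only. ASMM9PARTA028870 had scaled log2 signals of 9.27, 9.25 and 9.28 on the CnA arrays, -0.88, 0.86 and 1.52 on the WT arrays, and -1.82, -2.04 and -1.99 on the TAC arrays. The CnA values were nearly identical to each other, the WT values spread over more than 2 log2 units, and no groups overlapped. CnA exceeded WT by 8.76 ± 0.51 (log2, SE; limma adjusted p = 5e-06). The files pair this probe, like nearly all probes of its family, with no gene.

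A further 4 mRNA probes led the rises, and all were far brighter in CnA than in either other group. ASMM9PARTA039330 read 4.43, 4.51 and 4.24 in CnA against -3.21, -3.35 and -2.97 in WT, a difference of 7.57 ± 0.12. For ASMM9PARTA032888 the CnA values were 3.25, 3.17 and 3.08 and the WT values -3.36, -3.72 and -3.05, and none of the TAC arrays detected it. ASMM9PARTA040787 stood at 3.73, 3.67 and 3.83 in CnA, while WT (-2.42, -2.52 and -2.62) and TAC (-2.33, -2.44 and -2.63) overlapped each other. ASMM9PARTA031210 repeated that arrangement, with 5.70, 5.59 and 5.60 in CnA, -0.25, -0.65 and -0.52 in WT and -0.01, 0.01 and -0.15 in TAC.

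The leading mRNA falls were of a different kind, since most were as low or lower in TAC. ASMM9PARTA043731 fell from 2.81, 3.55 and 3.53 in WT to -2.68, -3.28 and -3.19 in CnA, by 6.35 (SE 0.60; limma adjusted p = 6e-05). ASMM9PARTA029602 went from 4.10, 4.09 and 3.92 to -1.68, -2.18 and -2.21. ASMM9PARTA028656 and ASMM9PARTA027887 fell by 5.77 and 5.40, with WT replicate 1 the lowest WT array for both. ASMM9PARTA044035 alone among the 5 falls was called lower in CnA (-0.73, -0.85 and -0.93) than in TAC (2.37, 2.47 and 2.44), with WT highest at 5.98, 4.83 and 4.61.

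Among lncRNA probes, the 5 leading rises all started from low WT signals. ASMM9PARTA050731 rose from -3.05, -2.63 and -2.84 in WT to 3.19, 2.93 and 2.98 in CnA, by 5.87 ± 0.13 (limma adjusted p = 1.1e-07), and stood at 3.05, 3.05 and 3.10 in TAC. CnA and TAC therefore overlapped for this probe. The other 4 were graded, with TAC between WT and CnA. ASMM9PARTA015876 read -2.79, -3.03 and -3.52 in WT, -0.28, -0.50 and -0.41 in TAC and 2.43, 2.39 and 2.37 in CnA. ASMM9PARTA001783 rose by 5.45 ± 0.11 over WT, ASMM9PARTA051218 by 5.23 ± 0.14 and ASMM9PARTA000231 by 5.15 ± 0.11.

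The leading lncRNA falls ran from bright WT signals to dim signals in both CnA and TAC. ASMM9PARTA013674 went from 4.53, 5.02 and 4.86 in WT to -0.95, -2.12 and -1.77 in CnA, and fell by 6.41 (SE 0.33; limma adjusted p = 3.1e-06), and it was at -2.51, -1.59 and -2.22 in TAC. ASMM9PARTA011536, ASMM9PARTA016481 and ASMM9PARTA016798 fell by 5.79, 5.58 and 5.51, and their CnA and TAC values overlapped. The probe uc.203+, one of the probes for both strands of an ultraconserved element, fell from 4.07, 4.74 and 4.56 to -1.12, -1.30 and -1.20. Ultraconserved elements are stretches of sequence identical between human and mouse, and some are transcribed.

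**Figure D2:**
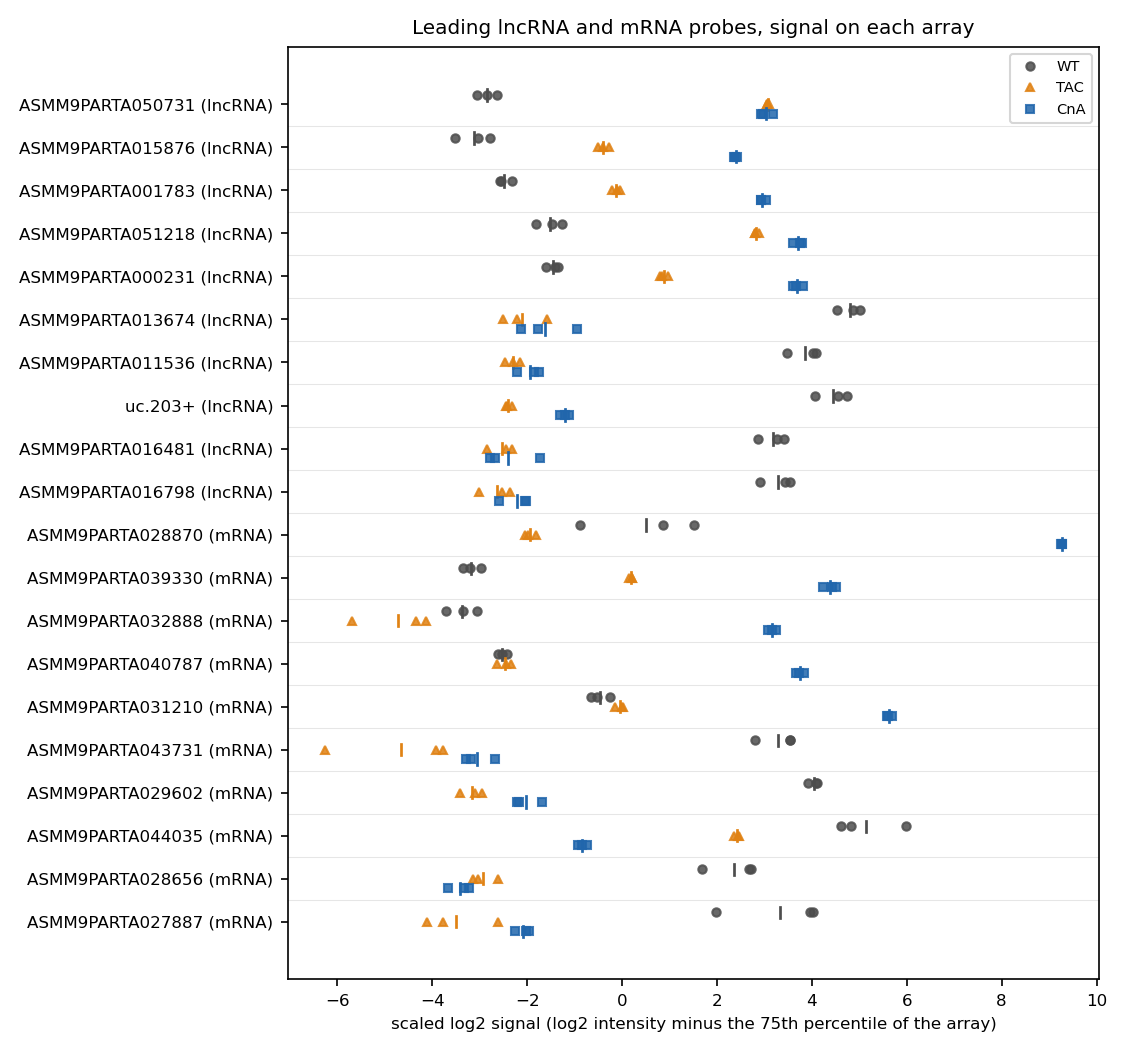
Scaled log2 signal on each array for the 5 largest rises and 5 largest falls of CnA against WT among lncRNA and mRNA probes (points: arrays; short vertical lines: group means of n = 3; grey WT, orange TAC, blue CnA). The 20 probes were chosen without overlap of WT and CnA, and ASMM9PARTA028870 reaches 9.27 in CnA while WT and TAC stay at or below 1.52.

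Against TAC, CnA differed at fewer probes. In the same fit, 7701 of 44224 probes (17.4%) differed between CnA and TAC, 4653 (10.5%) higher and 3048 (6.89%) lower in CnA; the comparison uses the same CnA arrays as that with WT. Of the 20 leading probes, 12 were among them. ASMM9PARTA028870 had the largest positive difference from TAC, 11.22 ± 0.51 (limma adjusted p = 1e-05), and ASMM9PARTA044035 the largest negative one, -3.26 ± 0.31 (limma adjusted p = 0.00029). Of the 10 leading falls only ASMM9PARTA044035 was called lower in CnA than in TAC, and uc.203+ and ASMM9PARTA029602 were called higher than in TAC although lower than in WT. Of the 10 leading rises all but ASMM9PARTA050731 were called higher than in TAC.

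Some probes were detected in CnA and not in WT, or the reverse. All 3 CnA arrays and no WT array detected 530 probes, and all 3 WT arrays and no CnA array detected 603. For these, the fold difference is a lower bound, since the dim side was not well above background: each array of the dim group enters at the lowest signal it detected or at the probe's own value, whichever is higher, and the mean of these is compared with that of the bright group. The bound was at least 4-fold for 61 of the CnA and 98 of the WT probes, and under 1 for 26 of the WT probes. All 3 TAC arrays also detected 113 of the 530 probes and 28 of the 603. No TAC array detected 163 of the 530 and 427 of the 603. ASMM9PARTA007272 had 4.17, 4.20 and 3.90 in CnA, was detected on no WT or TAC array and was at least 307-fold higher in CnA than in WT. ASMM9PARTA010155 was at least 51.9-fold higher in CnA than in WT, and all 3 TAC arrays detected it. ASMM9PARTA011597 was at least 51.8-fold higher in WT than in CnA.

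Families of probes are recognised by their names. The family ASMM9PARTA, which holds nearly all mRNA probes and most lncRNA probes, made up 39204 of the tested probes, and 57.7% were called, 14125 higher and 8492 lower. In the lincRNA exon family, MM9LINCRNAEXON, 49.7% of 2416 were called, 914 higher and 287 lower. The probes named humanlincRNA and mouselincRNA were called in 44.0% of 671 and 45.4% of 403. Their calls were 237 higher and 58 lower for the former, and 150 and 33 for the latter. For ultraconserved elements, 48.0% of 483 probes were called, 159 higher and 73 lower. All of these families other than ASMM9PARTA lay below the 56.8% over all probes, and all held more dim probes: 45.5% of MM9LINCRNAEXON, 55.6% of humanlincRNA, 56.1% of mouselincRNA and 58.8% of ultraconserved probes lay in the 2 dimmest strata, against 39.0% of ASMM9PARTA. Among the remaining families, 52.9% of 828 probes with GenBank names, 67.6% of 111 with RefSeq accessions and 56.2% of 64 for Ensembl transcripts were called. Of these, 42.5%, 37.8% and 28.1% lay in the 2 dimmest strata. The RefSeq share includes probes that passed the filter through the CnA arrays alone. The part of brightness in the family shares was not tested.

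The probes given here for the smaller families are the largest rises and falls under the same conditions, detection on all 6 arrays included; larger differences occur among probes that missed detection on some arrays. MM9LINCRNAEXON10137- rose from -1.93, -2.50 and -2.10 in WT to 1.44, 1.32 and 1.44 in CnA, by 3.58 ± 0.15 (limma adjusted p = 1.1e-06), and stood with WT in TAC at -2.29, -2.29 and -2.24. MM9LINCRNAEXON11754- fell by 3.10. humanlincRNA2268- rose by 3.19 ± 0.42, with WT replicate 1 at 0.67 and the other WT arrays at -1.06 and -1.14. The bright mouselincRNA1437+ rose by 2.13 ± 0.11, from 5.48, 5.87 and 5.74 to 7.85, 7.80 and 7.83. Among ultraconserved elements uc.256+ rose by 2.04 ± 0.16 and uc.366- fell by 3.36 (SE 0.32), the latter with no detection on any TAC array.

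Loci with a probe on each strand allow both directions of transcription to be compared. Both probes were tested at 1286 of 3157 such loci. Of these, 47.7% of the + and 49.1% of the - probes were called, against 56.8% of all probes. Both were called at 308 loci, 24.0%, 1 at 630 and neither at 348; whether both strands move together more than these shares give was not tested. Where both were called, 179 loci were higher on both strands, 33 lower on both, and 96 opposite. Over the 1286 loci the differences of the + and - probes correlated at r = 0.07, a description over loci that share the same 6 arrays.

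A few loci show these arrangements. MM9LINCRNAEXON10875 moved in opposite directions: its + probe rose from -1.15, -0.59 and -0.59 in WT to 1.01, 0.92 and 1.06 in CnA, and its - probe fell from -1.59, -0.54 and -0.47 to -2.54, -2.61 and -2.51. MM9LINCRNAEXON11331 rose on both strands, by 1.62 on + and 1.60 on -. MM9LINCRNAEXON11148 fell by 1.41 on + and by 1.43 on -. At MM9LINCRNAEXON10137 the - probe described above had a + partner at -0.16 that was not called. The fall of uc.203+ by 5.67 stood beside a fall by 0.76 of uc.203- (limma adjusted p = 0.027), a call that was lost without WT replicate 2 (-0.50) and in 6 other settings.

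**Figure D3:**
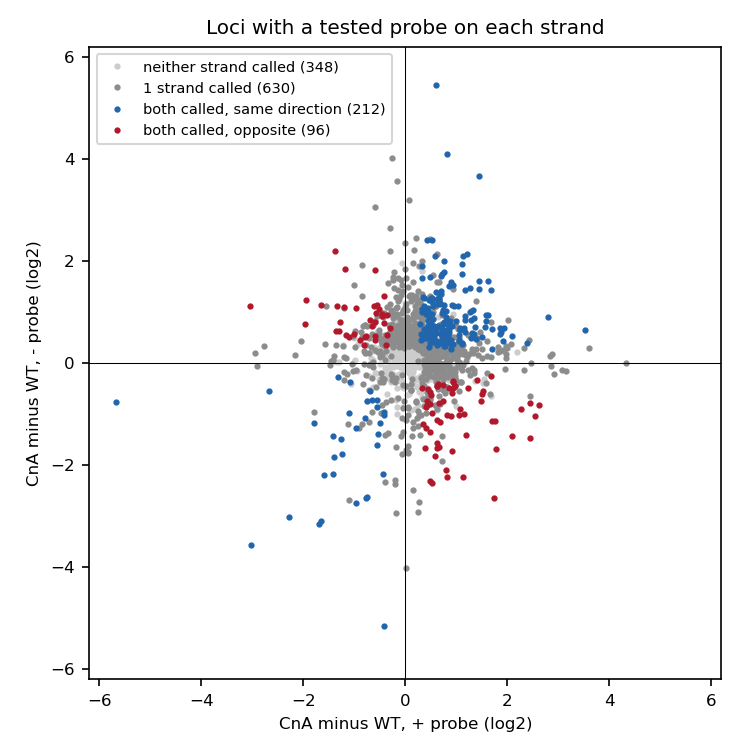
CnA minus WT (log2) of the + probe (horizontal axis) and the - probe (vertical axis) at 1286 loci with both probes tested, coloured by which strands limma called at an adjusted p under 0.05. The 96 opposite loci (red) lie in the upper left and lower right, and the 212 loci of the same direction (blue) lie mostly in the upper right.

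A gene name could be given to 116 probes, through RefSeq accessions in the probe annotation; 104 of them, for 100 genes, were tested. Of the 140 genes in the lists for heart cell types, hypertrophy, calcineurin and NFAT signalling, calcium handling, matrix, metabolism and known lncRNAs, 1 had such a probe. The calcineurin transgene, the hypertrophy genes and the markers of heart cell types were therefore not checked here, and neither was the tissue label. The gene with a probe was Ppia, which encodes cyclophilin A, the partner through which cyclosporin inhibits calcineurin. Ppia read 7.74, 7.46 and 7.37 in WT and 8.36, 8.22 and 8.27 in CnA, 0.76 ± 0.12 higher (limma adjusted p = 0.00084). Under quantile normalization its difference was 0.08 and the call was lost.

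Among named genes detected on all 6 arrays, the largest rises belonged to the chemokine CCL21, a ligand of the receptor CCR7 that draws T cells and dendritic cells to lymphoid tissue. The probe named Ccl21c read 6.11, 5.42 and 5.40 in WT and 8.57, 8.44 and 8.41 in CnA, 2.83 ± 0.19 higher (limma adjusted p = 9.1e-06). Ccl21b rose by 2.74 ± 0.18. Gm13304 and Gm13305, listed on the same chromosome, rose by 2.83 ± 0.21 and 1.84 ± 0.21. CnA and WT did not overlap for any of the 4, and the TAC values lay close to those of CnA. Ccl21c, Ccl21b and Gm13304 are near-identical copies, so their probes may read the same transcripts and are not separate results. Whether Gm13305 is a copy of them was not checked. Its CnA mean was 7.36, below those of Ccl21b (8.11), Gm13304 (8.41) and Ccl21c (8.47). No lymphocyte or macrophage marker on the lists had a named probe to set beside them.

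Also higher were the histone H2A genes H2ac18 and H2ac19, which encode a core protein of the nucleosome and belong to a class of histone genes whose transcripts often lack a poly(A) tail. H2ac18 rose from 6.0, 5.70 and 5.55 in WT to 7.67, 7.80 and 7.78 in CnA, by 2.00 ± 0.13 (limma adjusted p = 7.3e-06). H2ac19 rose by 1.31 ± 0.14. The other histone H2A probes, H2ac23 and H2al2b, differed by 0.08 and 0.02 and were not called, with CnA replicate 3 the lowest of all 9 arrays for both. H2ac18 and H2ac19 are neighbours and near-identical, so that their probes may read both transcripts.

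The 250 bases upstream of both starts are shown because the genes rose together; they are RefSeq sequence of build GRCm38.p6, whereas the array was designed on mm9. Capitals mark CCAAT, searched on both strands, a motif common in histone promoters.
H2ac18, chr3:96245247-96245496, + strand: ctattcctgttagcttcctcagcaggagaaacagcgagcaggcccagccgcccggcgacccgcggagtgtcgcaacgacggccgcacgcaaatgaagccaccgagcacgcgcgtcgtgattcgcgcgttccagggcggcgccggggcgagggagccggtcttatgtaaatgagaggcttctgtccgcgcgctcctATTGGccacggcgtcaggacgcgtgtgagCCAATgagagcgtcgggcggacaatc
H2ac19, chr3:96240375-96240624, - strand: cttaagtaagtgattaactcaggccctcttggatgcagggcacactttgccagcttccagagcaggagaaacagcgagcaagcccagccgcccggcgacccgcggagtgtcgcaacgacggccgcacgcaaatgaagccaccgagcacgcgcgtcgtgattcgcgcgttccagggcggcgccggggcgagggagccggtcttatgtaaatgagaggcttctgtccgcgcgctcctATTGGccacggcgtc
The longest run shared by both windows is 169 bases, and it begins 209 bases before the start of H2ac18 and 169 before that of H2ac19. CCAAT occurs 2 times in the H2ac18 window and 1 time in that of H2ac19, and 33.8% of 32851 RefSeq promoter windows of the same length hold it on either strand. Neither window holds GGAAA, the core of NFAT sites.

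A group of 6 probes covers neighbouring genes from Disp1 to Hhipl2, a run in which only Fam177b had no probe; it was singled out after its values were seen. Disp1, which releases Hedgehog ligands from cells, rose from 2.85, 2.56 and 2.50 to 4.42, 4.41 and 4.35, by 1.76 ± 0.11 (limma adjusted p = 7.5e-06). Taf1a, a subunit of the selectivity factor for RNA polymerase I, rose from 3.94, 3.50 and 3.40 to 5.29, 5.27 and 5.28, by 1.67 ± 0.14. Hhipl2 rose by 1.38 and Mia3, which serves the export of collagen from the endoplasmic reticulum, by 0.86. Between them Brox was at 0.02 and was not called, and Aida fell by 0.37, a call that was lost without any 1 of the CnA arrays (limma adjusted p up to 0.11). Under quantile normalization Aida was at -0.29 and was not called either. The rise was thus not shared by the whole run.

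Taf1a, a rising gene of this run, has GGAAA in the window shown here, with that core in capitals on either strand.
Taf1a, chr1:183388635-183388884, + strand: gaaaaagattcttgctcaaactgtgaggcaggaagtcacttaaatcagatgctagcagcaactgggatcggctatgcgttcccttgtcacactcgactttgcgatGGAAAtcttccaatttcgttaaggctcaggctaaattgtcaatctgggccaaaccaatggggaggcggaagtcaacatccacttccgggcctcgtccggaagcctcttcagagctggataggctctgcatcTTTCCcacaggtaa
The core occurs 2 times here. It was found in 55.6% of all windows, in 20 of 47 named genes higher in CnA that had a window, in 5 of 8 lower and in 11 of 22 not called. A match is a description of the letters and not of binding.

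Other named genes were spread over many functions. Hmgcs1, an enzyme of the mevalonate pathway to cholesterol, rose from 4.83, 4.66 and 4.51 to 5.94, 5.89 and 5.78, by 1.20 ± 0.13 (limma adjusted p = 0.00012), while its neighbours Ccl28, Nim1k and Zfp131 had differences of 0.52, 0.13 and -0.05 and were not called. Csprs fell by 1.42 (SE 0.15) and lay between WT and TAC. Jrkl was detected on all 3 WT arrays, at 0.12, 1.24 and 0.97, and on no CnA array, and was at least 25.4-fold higher in WT. On the TAC arrays Jrkl was at -0.95 in replicate 2 and near the floor on the other TAC arrays, and its neighbour Ccdc82 rose in CnA by 0.67. Of 10 vomeronasal receptor probes, 7 were higher and 3 not called, with a median difference of 0.62, against 36.2% higher among all probes. They are dim, with CnA means of -2.86 to -0.18, and Vmn1r186 passed the filter through the CnA arrays alone. Vmn1r187 and Vmn1r259 were not detected on every WT array, and none of the 10 was called higher than in TAC. Nothing is read from their count.

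**Figure D4:**
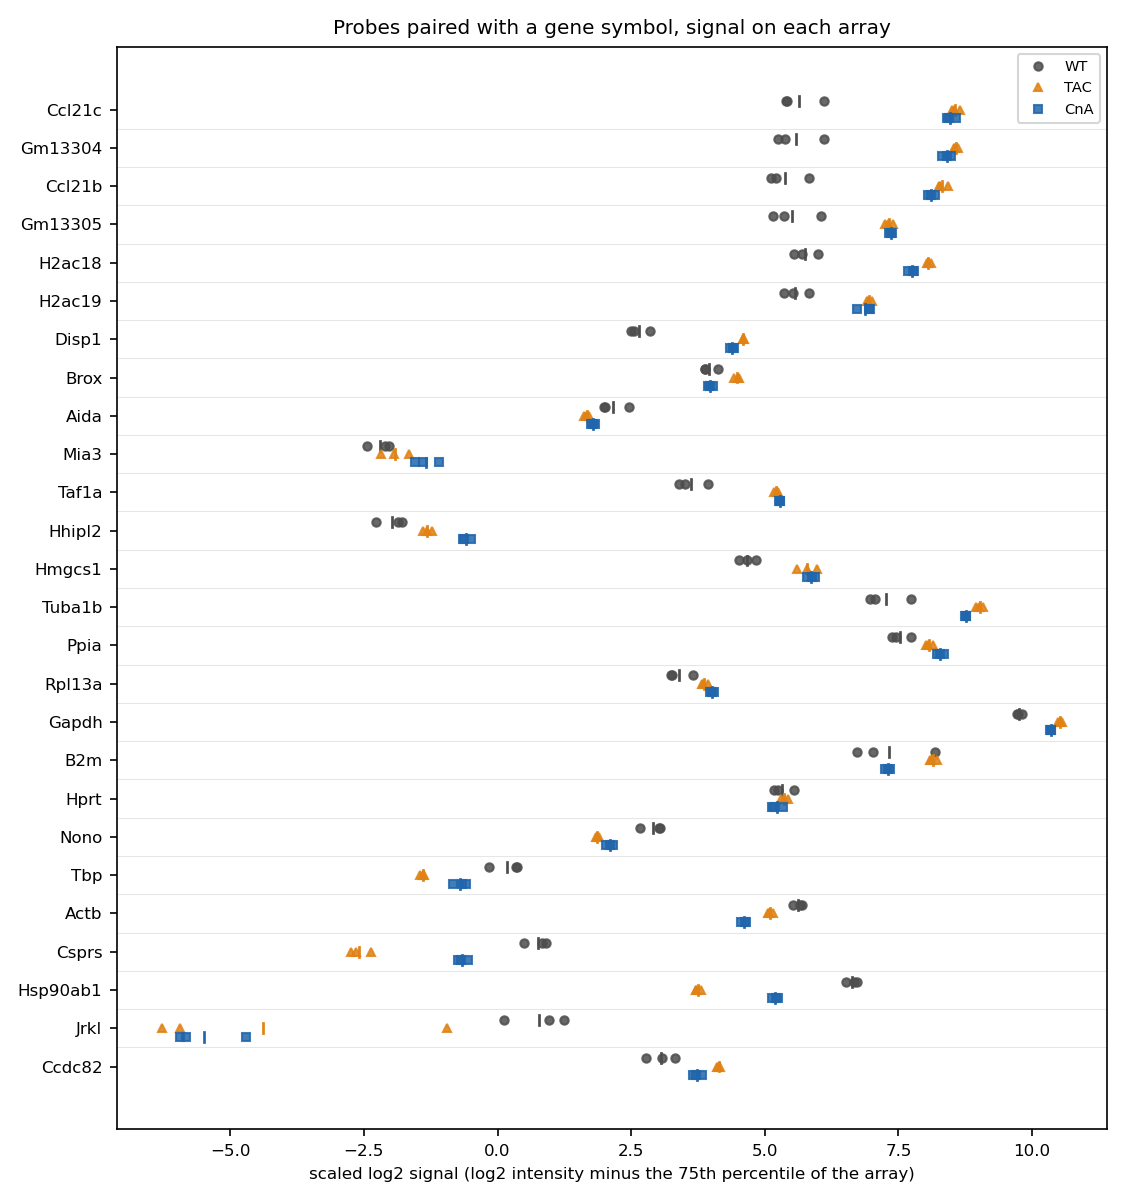
Scaled log2 signal on each array for 26 probes paired with a gene name (points: arrays; short vertical lines: group means of n = 3; grey WT, orange TAC, blue CnA). The Ccl21, H2ac18, Disp1 and Taf1a probes are high in both CnA and TAC, and Brox, B2m and Hprt do not separate CnA from WT.

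Genes of the Y chromosome were grouped among the named probes after the values were seen. The array holds 23 such probes and 21 were tested, among them Sly, Ssty1 and Ssty2, members of multi-copy families that are known from the testis. CnA was higher for 17, lower for 2, and 2 were not called, with a median difference of 2.29. Of the 21, 12 had passed the filter through the CnA arrays alone and had to differ. Of the other 9, 5 were higher, 2 lower and 2 not called, against 36.2% and 20.5% of all tested probes. Among the 79 probes of other named genes that had not passed through CnA alone, 35 were higher and 12 lower. The count of 17 higher was the same under quantile normalization, both normexp settings and median scaling, and without CnA replicate 3, which left 1 of the 2 lower calls. The 12 probes that passed through CnA alone are among these 17, so that the steady count is no support.

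Ssty1 read -3.94, -3.53 and -4.02 in WT, -4.22, -3.86 and -3.98 in TAC and -1.74, -1.63 and -1.83 in CnA, 2.10 ± 0.16 above WT (limma adjusted p = 1.7e-05). For Ssty2, detected on no WT array, CnA was at least 4.77-fold higher. Gm20867 lay at -6.25, -6.58 and -6.66 in WT, among the lowest values of those arrays, and at -2.06, -2.41 and -2.15 in CnA. Ssty1, Ssty2 and Gm20867 had each passed the filter through the CnA arrays alone. Gm20738 went the other way, from 0.56, 0.66 and 0.63 in WT to -0.03, 0.07 and 0.11 in CnA. Against TAC, 14 of the 21 were higher in CnA and none lower by limma's test; of the 9 that had not passed through CnA alone, 3 were higher (background 10.5% higher and 6.89% lower). These signals are dim, and most lay below the brightest negative control. Many of the genes are near-identical copies and the labels give no sex, so that single members are uncertain. The part of the sex of the animals in these values was not tested.

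**Figure D5:**
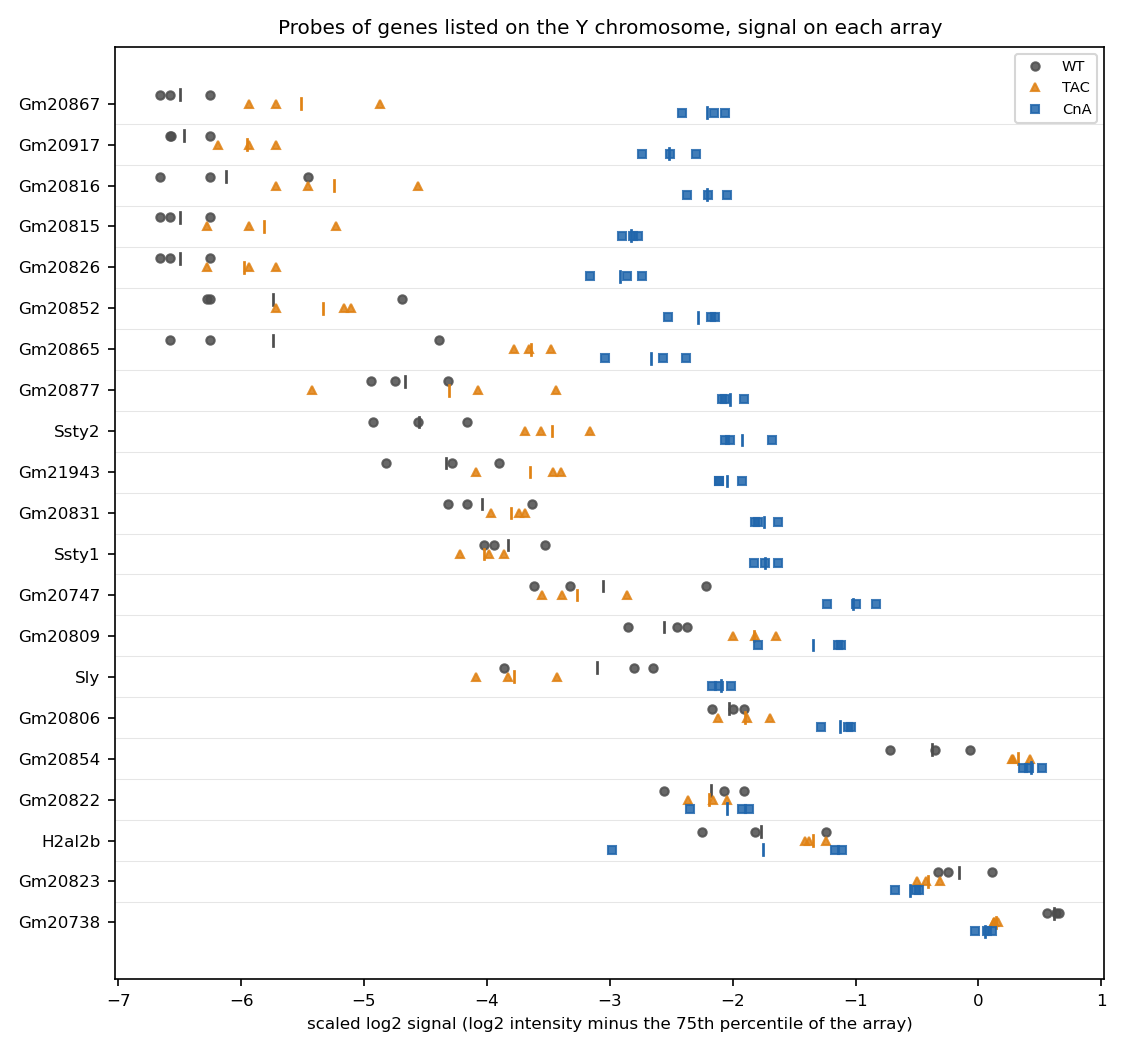
Scaled log2 signal on each array for the 21 tested probes of genes that RefSeq lists on the Y chromosome (points: arrays; short vertical lines: group means of n = 3; grey WT, orange TAC, blue CnA). The CnA arrays lie to the right of WT for 17 probes, and to the left for Gm20738 and Gm20823. Of these 17 probes, 12 had passed the filter through the CnA arrays alone.

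The 15 reference-gene probes, with 20 spots each and hence the most spots behind each value, differed in both directions. In CnA, 5 were higher, 4 lower and 6 not called, near the shares over all probes (36.2% higher and 20.5% lower). Hsp90ab1, a cytosolic chaperone, fell from 6.51, 6.67 and 6.73 to 5.25, 5.14 and 5.20, by 1.44 (SE 0.10; limma adjusted p = 1.1e-05), and was lower still in TAC. Actb, cytoskeletal actin, fell by 1.02, Tbp by 0.88 and Nono by 0.81. Tuba1b, a tubulin, rose from 7.74, 7.07 and 6.97 to 8.77, 8.75 and 8.77, by 1.51 ± 0.19. Rpl13a rose by 0.62 and Ldhal6b by 0.67. Gapdh was 0.59 ± 0.08 higher, but 0.03 and not called under quantile normalization, where Ppia (0.08) lost its call too. Quantile normalization also called Hprt (-0.54) and Tfrc (-0.71) lower and Gusb (0.29) higher. The balance of these calls therefore moved with the scaling. B2m differed by -0.02, with WT replicate 1 at 8.19 and the other WT arrays at 7.03 and 6.73; without WT replicate 1 it was 0.42 higher in CnA (limma adjusted p = 0.015).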

How the data were processed

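Each array was read in 1 channel by Agilent Feature Extraction 11.0, and the design is of build mm9, per the file headers. The deposited scanner files give the intensity of each spot after background subtraction and detrending, unscaled between arrays, with 0 or 1 flags for detection. The authors also deposited log2 tables of lncRNA and mRNA probes. Their making is not given in the sources used here; set against quantile-normalized intensities, the median gap of their log2 values was 0.00291 or less on every array, with at least 99.45% within 0.05, so that scale and centring are those of quantile normalization.

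Control spots and 130 outlier-flagged probes were left out. A probe was tested where all 3 arrays of at least 1 group were well above background. limma 3.58.1 in R 4.3.3 (lmFit, eBayes) was fitted to all 9 arrays with 1 coefficient per group and contrasts CnA minus WT and CnA minus TAC, with p-values adjusted over 44224 probes (Benjamini-Hochberg) and called at 0.05. Class was taken from the table that lists a probe. Named were the 5 largest rises and falls per class, those of each family of at least 50 tested probes, the 10 largest each way with a gene name, the reference genes and the 3 largest bounds, all chosen among called probes detected on all 6 arrays without overlap, apart from reference genes and bounds; other names were chosen after their values were seen. Members and lists were chosen with earlier results of these data known. Gene names are from a RefSeq table of GRCm38. Precision is limited by 3 arrays per group. Tested on simulated data of 44224 probes, the CnA against WT fit recovered 53% of changes of 1 log2 unit and 87% of those of 2, and called 12 other probes. Only a small part of the simulated probes was changed, and noise was drawn independently for each probe and array. In the real data 56.8% of the probes were called, so that these values do not measure recovery or false calls there. Replicate numbers did not pair the arrays (same-number correlations of -0.075, -0.122 and -0.219). Alternatives were quantile, median and normexp (offset 50) settings, other filters, array weights, other fits and blocks, the deposited log2 tables, and each array left out in turn.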

Additional observations from a re-analysis of the deposited data

Results flagged for a closer look

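Of the 20 leading probes, 12 differed between CnA and TAC by limma's test of that difference itself. Among mRNA rises, CnA minus TAC was 11.22 for ASMM9PARTA028870, 4.21 for ASMM9PARTA039330, 7.89 for ASMM9PARTA032888, 6.21 for ASMM9PARTA040787 and 5.67 for ASMM9PARTA031210. Among lncRNA rises it was 2.79 for ASMM9PARTA015876, 3.08 for ASMM9PARTA001783, 0.89 for ASMM9PARTA051218 and 2.81 for ASMM9PARTA000231. Among falls it was 1.18 for uc.203+, 1.13 for ASMM9PARTA029602 and -3.26 for ASMM9PARTA044035. The 20 negative control probes, which were in no fit, had a median CnA minus WT of 0.29 on the scaled log2 signal. With 3 arrays in a group, no array was tested as an outlier.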

How the results depend on the processing

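Counts of calls, given for all, lncRNA and mRNA probes, moved beyond 1.5 times in 2 settings: with WT arrays alone setting the spread they were 15887, 7377 and 7147, and with at least a 2-fold difference 11215, 4700 and 5170. With 1 array left out they ranged from 21918 to 26893, from 10754 to 13349 and from 9784 to 12058. The replicate block gave 23092, 11327 and 10282, and the row on the slide as a block, an alternative added after seeing the data, gave 21018, 10267 and 9468. The scan date could not serve as a block, because of the 9 arrays only CnA replicate 3 had the second date. Without that array 23515 probes were called. The row block set CnA replicate 3 with the WT arrays, though its scan date differed, so that this block cannot settle the part of place. Of 131 recomputed counts by family and stratum, 130 stayed within 1.5 times, and the dimmest stratum rose to 5961 calls under normexp. All 280 recomputed values of the 20 leading probes kept direction and call. These probes were chosen from the same arrays for large differences without overlap, so that this steadiness is no support. Of 2254 recomputed values over 161 named probes, 61 lost the call, 27 gained it and 0 reversed; the cause was not tested. Dim probes limit precision, since values near the floor have no order.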
